A study of Mus musculus with 15 samples.

Results

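The comparison described here set large intestine RNA of mice given a high dose of a non-polar algal extract against that of mice given a low dose of the same extract, and so asked which transcripts followed the dose. The high dose was 1.0 g/kg (replicates 21, 23 and 25) and the low dose 0.3 g/kg (replicates 26, 27 and 29), so that 6 of the 15 libraries of the series entered, chosen by their sample titles. All mice were male C57Bl/6 animals aged 4 weeks, and all received their dose by gavage on 3 days in a row and 24 h apart, with Chremophor EL and 10% DMSO as the solvent. Tissue was taken 12 h after the last dose. The other 9 libraries are 3 of cymopol at 1.4 mmol/kg, 3 of cymopol at 0.3 mmol/kg and 3 of a vehicle control. Cymopol is a brominated hydroquinone of the green alga Cymopolia barbata. The labels do not say whether each library came from 1 mouse, so p-values measure the spread between these libraries. Extract and cymopol were given by weight and by moles, and the cymopol content of the extract is not in the sources used here.

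Hydroquinones can be oxidised to quinones, which react with the cysteines of KEAP1, the protein that keeps the transcription factor NRF2 at a low level. Freed NRF2 enters the nucleus and turns on genes for glutathione synthesis, quinone reduction and export of conjugates. The large intestine meets swallowed compounds with an epithelium of absorptive colonocytes and goblet cells above a wall of smooth muscle, and fat of the mesentery lies against it.

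Each table of FPKM (fragments per kilobase of transcript and per 1000000 mapped fragments) lists annotated genes by Ensembl identifier beside loci assembled anew in each library. Of 38189 annotated identifiers in the series, 27333 had a row of their own in all 6 tables, and 779 of these reached 1 FPKM in 3 or more libraries and were tested. Most well-expressed genes were absent from this set, since they appeared as an assembled locus in at least 1 library. A wider set was therefore made after the tables had been seen, in which assembled loci were assigned to the gene whose span they matched. It held 8230 genes and served for every gene list below. Differences are given as log2(FPKM + 1), high dose minus low dose.

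Depth differed between the doses. Estimated fragments in protein-coding genes were 174904, 556401 and 279240 in the high dose libraries and 28513, 106747 and 71302 in the low dose libraries. Low dose replicate 26 stood apart, with 46.2% of the genes of the wider set listed at 0, against 1.36% to 3.52% in the high dose libraries and 4% and 21.2% in low dose replicates 27 and 29. An FPKM in replicate 26 also stood for more fragments, 4.6 times as many as in replicate 27 by the median over 874 genes. It was the lowest of the 6 libraries for 69.5% of genes. Without it, the median difference over all genes of the wider set fell to 0.48, against 1.09 with it. Because of this, list values below are given relative to all genes, and gene levels are also given in FPM, estimated fragments per 1000000 fragments in protein-coding genes of the library, a scale that does not depend on the size of a library's FPKM values. With 0 fragments observed, a level of up to 105, 28.1 and 42.1 FPM is allowed in low dose replicates 26, 27 and 29 by counting error alone (3 fragments), and of up to 17.2, 5.39 and 10.7 FPM in high dose replicates 21, 23 and 25.

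**Figure D1:**
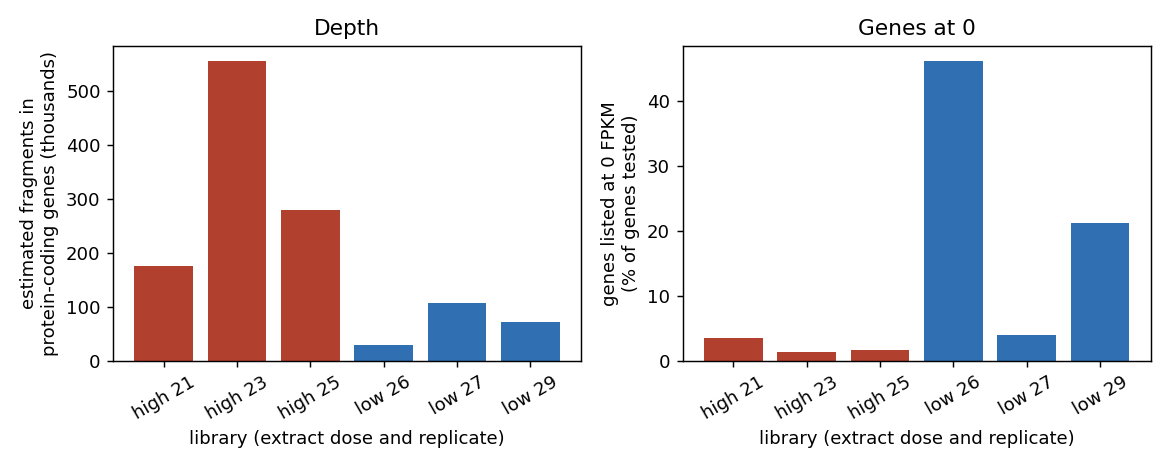
Depth of the 6 libraries as estimated fragments in protein-coding genes (left) and the percentage of the 8230 genes of the wider set listed at 0 FPKM (right), with 1 bar per library and the high dose in red to the left of the low dose in blue. Low dose replicate 26 had the fewest fragments, 28513, and the most genes at 0, 46.2%.

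With limma on the 779 genes, 4 snoRNA genes were called with a higher FPKM at the high dose and no gene with a lower one (adjusted p under 0.05). All 4 were at 0 in the low dose libraries, so they passed the filter through the high dose libraries alone and could only differ upwards. Small nucleolar RNAs guide chemical modification of ribosomal RNA and are mostly cut from introns of other genes. All 4 lie within the span of a protein-coding gene on the same strand. Snord11 lies within Nop58, which encodes a core protein of C/D box snoRNA particles. Gm26493 lies within Cnot1, a scaffold of the deadenylase complex, Gm23455 within Taf1d, a factor of RNA polymerase I, and Gm24233 within Mia2. Their transcripts are shown because they are the genes that passed the test. They are GENCODE M21 sequences on GRCm38, at chromosome 1, 59704790 to 59704873 (plus strand) for Snord11, chromosome 8, 95746060 to 95746195 (minus) for Gm26493, chromosome 9, 15316489 to 15316588 (plus) for Gm23455 and chromosome 12, 59134072 to 59134193 (plus) for Gm24233. Capitals mark TGATGA (C box) and CTGA (D box) in Snord11, searched in the first and last 20 bases of the transcript strand, and ACA followed by 3 bases at the 3′ end in the others.
Snord11: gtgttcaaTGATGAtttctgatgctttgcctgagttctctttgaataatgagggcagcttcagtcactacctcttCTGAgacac
Gm26493: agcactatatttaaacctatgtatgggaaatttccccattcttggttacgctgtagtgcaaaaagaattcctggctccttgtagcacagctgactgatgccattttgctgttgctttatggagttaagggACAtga
Gm23455: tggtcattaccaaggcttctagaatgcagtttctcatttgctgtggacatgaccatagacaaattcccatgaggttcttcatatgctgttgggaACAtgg
Gm24233: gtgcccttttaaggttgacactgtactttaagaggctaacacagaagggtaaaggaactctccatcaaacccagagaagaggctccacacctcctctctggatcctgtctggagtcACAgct
Of 1507 annotated mouse snoRNA transcripts, 20.5% hold the C and D boxes in these windows and 18% the ACA box. The search was made on the transcript strand only.

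Snord11 had 97.3, 151 and 31 FPKM in the high dose libraries and 0 in all 3 low dose libraries, a difference of 6.29 (adjusted p = 0.0346, limma). Gm26493 had 87.2, 17.9 and 44.2 FPKM in the high dose libraries and 0 in the low dose libraries (adjusted p = 0.0347, limma). Gm23455 had 21.8, 42.9 and 24.9 FPKM against 0 in each low dose library (adjusted p = 0.0347, limma). Gm24233 had 64.5, 53.3 and 8.11 FPKM against 0 in each low dose library (adjusted p = 0.0415, limma). The groups did not overlap for any of the 4, but the fragments behind these values were few. Snord11 rested on 1.99, 6 and 1 estimated fragments, Gm26493 on 7, 3 and 6, Gm23455 on 1, 4 and 1.99, and Gm24233 on 4, 7 and 1. Pooled over the high dose libraries, Snord11 stood at 8.9 FPM, Gm23455 at 6.92 and Gm24233 at 11.9, all under the 14.5 FPM that 0 fragments allows over the low dose libraries. For these 3 a difference was not detectable at this depth by counting error, and Gm26493 stood only just above that level at 15.8 FPM, and under it when any library other than high dose replicate 23 was left out. None of the 4 was called by limma's voom on the estimated fragments, and leaving out any 1 of the 6 libraries left 0 to 2 calls. Voom adds a constant to each count before scaling by the library total. For genes near 0 fragments it therefore leans to lower values in the deeper high dose libraries.

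The share called was 0.513% of the 779 genes, against 19% whose high dose libraries all lay above the low dose libraries and 0.385% whose high dose libraries all lay below. In the wider set the same 4 genes were called, 0.0486% of 8230, and 22.9% of genes lay above without overlap against 0.0972% below. At an unadjusted p under 0.05, 89 of the 779 genes had a positive difference (11.4%) and 2 a negative one (0.257%), and in the wider set 1097 had a positive (13.3%) and 12 a negative one (0.146%). The difference was above 0 for 87% of the 779 genes and for 91.7% of the wider set, and below 0 for 8.32% of it. The low dose libraries were also the shallower ones, and the part of depth in these shares was not tested.

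NRF2 target genes mostly overlapped between the doses. Of 47 listed targets, 43 were tested in the wider set, none was called by limma on FPKM, and 10 lay above the low dose without overlap (23.3% of the list, against 22.9% of all genes). The list's median difference was 1.59, that is 0.50 above that of all genes. It was 0.12 below all genes without low dose replicate 26, and 0.04 above with libraries scaled by the median of ratios. Summed over the list, FPM were 19740, 9544 and 16230 in the high dose libraries and 16740, 15910 and 20190 in the low dose libraries, so that the doses overlapped. In vehicle replicates 2, 4 and 5 the same sum was 4712, 5520 and 15320, of 51766, 226531 and 25233 fragments. Fth1, the largest member, gave 5605, 2173 and 4219 at the high dose against 9780, 5524 and 9605 at the low dose. Without Fth1 the sums also overlapped, at 14140, 7371 and 12020 at the high dose against 6958, 10380 and 10580 FPM at the low dose. Fth1, named after its values were seen, was called lower with voom (difference -1.17, adjusted p = 0.0156, and 0.169 without replicate 26).

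Among enzymes of quinone reduction, Nqo1, the quinone reductase often used as a marker of NRF2 activity, had 22.4, 7.45 and 8.03 FPKM in the high dose libraries and 0, 8.96 and 3.23 FPKM in the low dose libraries, a difference of 1.80 ± 1.19 (SE; adjusted p = 0.458, limma). In FPM these were 316, 87.4 and 186 at the high dose against 0, 262 and 70.1 at the low dose. The doses overlapped, and the 0 of low dose replicate 26 allows up to 105 FPM. The carbonyl reductase Cbr3 had 527, 116 and 621 FPM in the high dose and 210, 462 and 643 in the low dose. Akr1b8, an aldo-keto reductase, had 640, 239 and 360 FPM at the high dose against 2.58, 561 and 123 at the low dose. Both genes overlapped between the doses.

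For glutathione synthesis, Gclc encodes the catalytic subunit of the rate-limiting ligase and Gclm its modifier subunit. Gclc had 469, 328 and 1486 FPM in the high dose libraries and 499, 541 and 801 in the low dose libraries. Here FPKM and fragments differed. In high dose replicate 21, 411 FPKM came from 82 estimated fragments, while in replicate 25, 34.5 FPKM came from 415, and for a matched locus the length behind an FPKM can differ between libraries. Gclm had 442, 144 and 189 FPM in the high dose and 0, 55.3 and 138 in the low dose, without overlap but by a narrow gap (adjusted p = 0.494, limma on FPKM; adjusted p = 0.279 with voom on fragments). Slc7a11, the cystine importer that feeds this pathway, stayed at or under 0.517 FPKM in every library and was not tested.

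Among antioxidant genes, Srxn1 (sulfiredoxin, which repairs peroxiredoxins) had 196, 131 and 155 FPM in the high dose libraries against 0, 66 and 17.5 in the low dose libraries. Its FPKM did not overlap either, at 55, 17.9 and 13.9 at the high dose against 0, 11.3 and 9.72 at the low dose, with a difference of 2.30 ± 1.31 (adjusted p = 0.417, limma). Hmox1, heme oxygenase, had 209, 47.3 and 45.4 FPM at the high dose against 0, 33.8 and 0 at the low dose, and Blvrb, which acts one step later in heme breakdown, had 13.6, 48.8 and 34.2 at the high dose against 1.87, 3.65 and 0 at the low dose. Both were higher in each high dose library than in each low dose library on that scale, and neither passed (adjusted p = 0.326 and 0.305, limma). The 0 of Hmox1 in low dose replicate 26 allows up to 105 FPM, more than high dose replicates 23 and 25 had. Blvrb lay under 105 FPM in every high dose library, and its low dose values rested on 0.05, 0.39 and 0 fragments. For these libraries a difference was not detectable at this depth. Txnrd1 and Gpx2 had FPKM up to 36.1 and 13.8, but their intervals gave under 1 fragment in every library, so their levels were not compared.

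Glutathione S-transferases, which join glutathione to electrophiles, had a list median 0.42 above all genes, and 0.02 below without low dose replicate 26. Of the 15 tested, 4 lay above without overlap (26.7%, against 22.9% of all genes) and none was called. Gsta4 had 198, 50.3 and 107 FPM in the high dose and 0, 28.1 and 28 in the low dose, with a difference in FPKM of 2.396 ± 1.13 (adjusted p = 0.351, limma). Gstm2 had 46.1, 73.3 and 78.4 FPM at the high dose against 0, 37 and 0 at the low dose. These high dose levels all lay under the 105 FPM that 0 fragments allows in low dose replicate 26, as did Gsta4 in high dose replicate 23. The more abundant Gstm1 had 963, 518 and 643 at the high dose against 502.6, 682 and 1261 at the low dose, and overlapped fully. Gsta1 (211, 19.9 and 139 at the high dose against 0, 10.4 and 25.8 at the low dose) and Gstm3 (383, 81.2 and 368 at the high dose against 0, 197 and 458 at the low dose) overlapped as well. Cyp1a1, the classic target of the aryl hydrocarbon receptor, was above 0 in high dose replicate 23 (1.74 FPKM) and low dose replicate 26 (0.079 FPKM) and did not reach the filter.

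Akr1c14, an aldo-keto reductase that acts on steroids and is not in the NRF2 list, had 64.2, 313 and 139 FPM in the high dose libraries and 0, 1.13 and 0 in the low dose libraries. The high dose libraries lay above what 0 fragments allows in low dose replicate 29 (42.1 FPM), but for replicate 26, which allows 105 FPM, the 64.2 FPM of replicate 21 would not have been detectable. In FPKM it had 5.12, 19.1 and 4.12 at the high dose against 0, 0.537 and 0 at the low dose (difference 2.89 ± 0.95; adjusted p = 0.179, limma), and it passed with voom on fragments (adjusted p = 0.000381, and 0.000777 without low dose replicate 26). Akr1c14 passed the filter through the high dose libraries alone and could only differ upwards. An unprocessed pseudogene, Gm18857, overlaps it on the same strand, and the split of reads between them is uncertain.

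**Figure D2:**
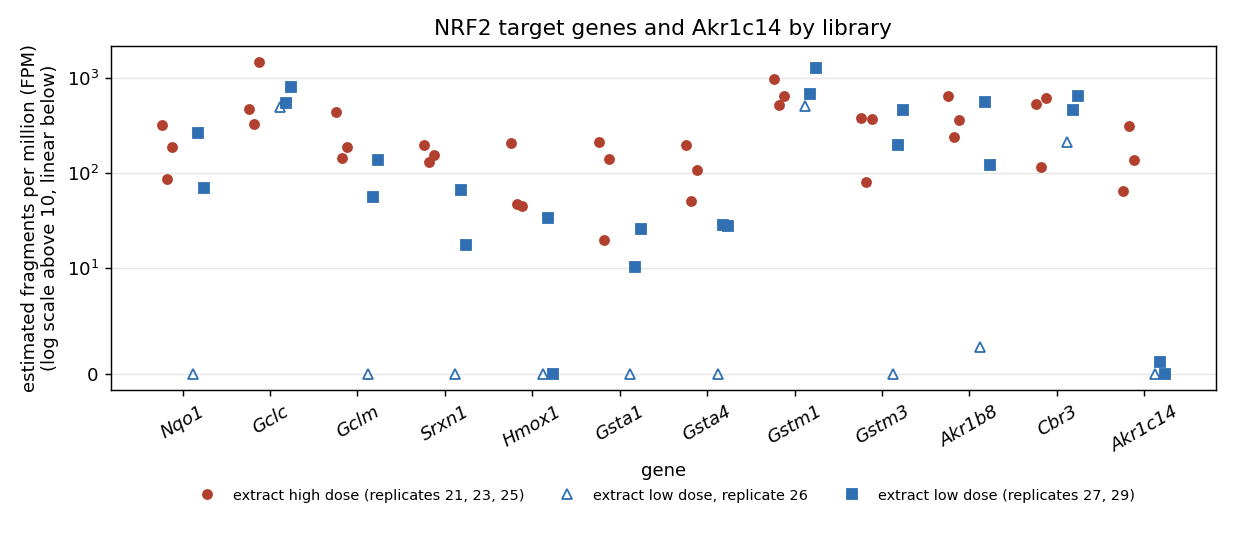
Level in FPM in each library for 11 NRF2 target genes and Akr1c14, with 1 point per library, the high dose in red to the left of the low dose in blue, and low dose replicate 26 as an open triangle. The axis is logarithmic above 10 and linear below. Gclm, Srxn1, Hmox1 and Gsta4 do not overlap between the doses and the other targets shown do, while Akr1c14 lies at 64.2 to 313 in the high dose and at most 1.13 in the low dose.

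Genes of fatty acid synthesis were lower relative to all genes at the high dose. Of 20 listed, 17 were tested and none was called by limma. The list's median difference lay 0.62 below that of all genes, and between 0.94 and 0.44 below under 10 alternatives (another pseudocount, another scaling, libraries left out). On the fragment scale the sum was 2582, 2020 and 1996 FPM in the high dose libraries and 6548, 5255 and 4706 in the low dose libraries, with no overlap. Of the 17 members, 4 lay below the low dose without overlap on that scale, against 1.8% of all 8230 genes, and 2 lay above (19.6% of all genes). Those above were Scd2, a second desaturase, with 14.1, 96.3 and 11.8 FPM at the high dose against 0.165, 9.81 and 8.68 FPM at the low dose, and Elovl1, an elongase, with 69.4, 41.9 and 104 FPM at the high dose against 0, 38.9 and 11.4 FPM at the low dose, named after their values were seen. In FPKM 11 of the 17 differences were above 0, where 91.7% of all genes were. Without Scd1 the sums still did not overlap, at 1629, 1738 and 1462 FPM at the high dose against 3260, 2346 and 1776 FPM at the low dose. The vehicle libraries spread more widely than either dose, at 2532, 16050 and 6518 FPM, and cymopol gave 7989, 4644 and 4954 at its high dose and 9078, 2943 and 7754 at its low dose.

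Scd1, which desaturates newly made fatty acids, was the most abundant member, and it was picked with its values in view. Scd1 had 953, 281 and 535 FPM in the high dose libraries and 3288, 2909 and 2930 in the low dose libraries, so that the low dose libraries lay close together and all above the high dose. Its FPKM overlapped (13.8, 7.87 and 7.46 at the high dose against 1.35, 30.7 and 39.7 at the low dose; adjusted p = 0.818, limma), with low dose replicate 26 the lowest of the 6. With voom on fragments Scd1 passed (difference -2.67, adjusted p = 0.000389, and 0.00137 without replicate 26). In the vehicle libraries it stood at 1958, 12130 and 3966 FPM. By adjusted p with voom, the first calls were Lars2 (2.36e-32), the lincRNA Gm26917 (2.73e-25) and the ribozyme RNA Rpph1 (1.24e-08), all with a negative difference. The small RNAs Rn7sk, Gm22513 and Vaultrc5 were called lower as well. Lars2 had 4285, 1595 and 2428 FPM at the high dose against 89370, 10590 and 23410 at the low dose. Lars2 is protein-coding, so its fragments are part of the total that FPM is relative to. Thrsp, which promotes lipogenesis, had 17.2, 0 and 14.3 FPM in the high dose and 386, 74.9 and 126 in the low dose, from 3, 0 and 4 fragments at the high dose and 11, 8 and 9 fragments at the low dose. Its FPKM did not overlap either (1.13, 0 and 0.79 at the high dose against 1.23, 3.52 and 7.91 at the low dose; adjusted p = 0.402, limma), and with voom it passed (adjusted p = 0.0112) but not without replicate 26 (0.236). Thrsp was near 0 fragments at the high dose, where voom's constant leans to lower values. Dgat2, which forms triglycerides and was also named after its values were seen, had 282, 90.4 and 164 FPM at the high dose against 418, 516 and 528 at the low dose (adjusted p = 0.338 with voom). Srebf1, the factor that drives these genes, had 0.119, 2.17 and 9.83 at the high dose against 1.05, 38 and 26.9 at the low dose, and Me1, which supplies NADPH, had 51.6, 0.0491 and 13 at the high dose against 92.8, 13.6 and 37.5 at the low dose. Srebf1 rested on at most 4.06 fragments in a library, and it and Me1 overlapped between the doses.

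Adipocyte markers were also lower relative to all genes. Of 14 listed, 12 were tested, none lay above the median of all genes, and none was called. In FPKM, 9 of the 12 had a difference below 0, and 6 lay lower in all high dose libraries than in low dose replicates 27 and 29, against 3.94% of all genes. The list's median lay 1.59 below that of all genes, and between 2.32 and 1.06 below under the 10 alternatives. Summed over the list, FPM were 2273, 454 and 1182 in the high dose libraries and 3428, 3431 and 5664 in the low dose libraries. In the vehicle libraries the sum was 1429, 5640 and 978, so the vehicle libraries overlapped both doses. Perilipin Plin4, a coat protein of lipid droplets, had 429, 50.8 and 163 FPM in the high dose and 1332, 582 and 1050 in the low dose. Cfd, the adipokine adipsin, had 436, 71.9 and 84.8 at the high dose against 982, 535 and 873 at the low dose. Lpl, lipoprotein lipase, had 168, 11.4 and 134 at the high dose against 186, 250 and 529 at the low dose. Pparg, the regulator of fat cell formation, had 106, 36.8 and 192 at the high dose against 378, 390 and 346 at the low dose, but its FPKM difference was positive, 1.04, at 4.28, 23.4 and 34.4 FPKM at the high dose against 0.61, 21.6 and 13.5 FPKM at the low dose. These 4 did not overlap on the fragment scale, and none passed (adjusted p = 0.0533, 0.0981, 0.223 and 0.279 with voom). Plin4, Cfd and Lpl were chosen after their values were seen.

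Other adipocyte markers depended more on single libraries. Retn had 1.01, 0 and 0.279 FPKM in the high dose and 0, 1.17 and 22.4 in the low dose, most of it in replicate 29. Plin1 had 2.18, 0.797 and 0.258 FPKM at the high dose against 0, 2.49 and 4.71 at the low dose, and Cidec had 5.67, 1.67 and 2.51 at the high dose against 0.649, 7.48 and 19.2 at the low dose. In bulk RNA, fewer fat cells and less RNA per fat cell cannot be told apart. The sum of fat cell markers and that of fatty acid synthesis genes were both lower in each high dose library than in each low dose library, and the part of the first in the second was not tested. High dose replicate 23 had the least of the adipocyte sum, 454 FPM, and the most fragments.

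**Figure D3:**
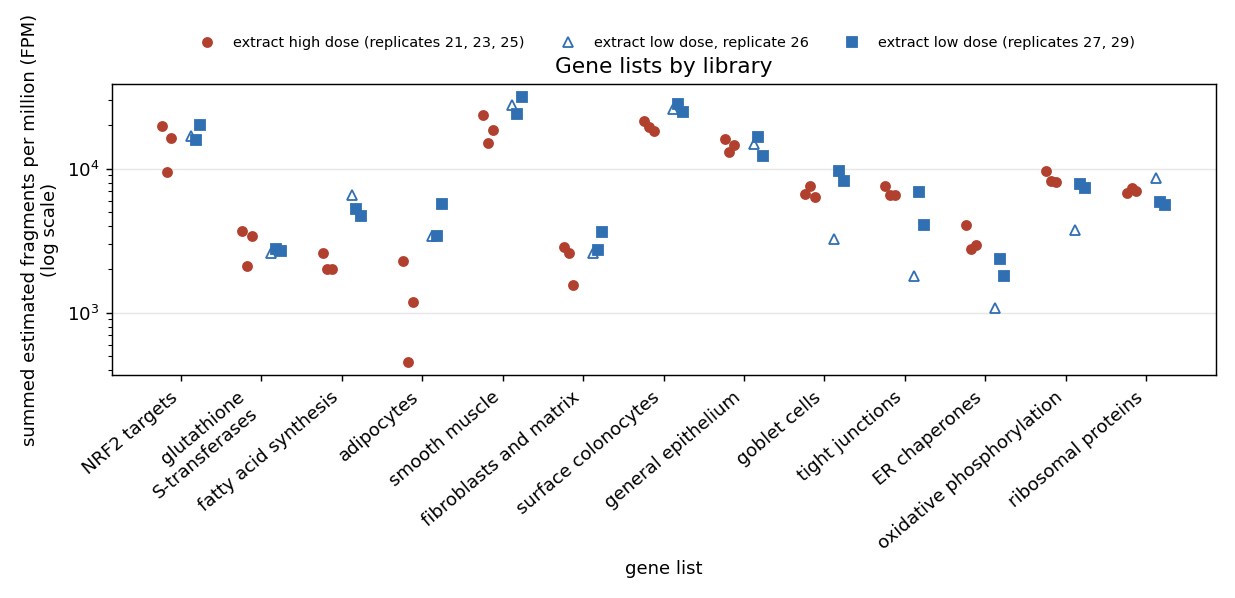
Summed FPM (log axis) of 13 gene lists in each library, with 1 point per library, the high dose in red to the left of the low dose in blue, and low dose replicate 26 as an open triangle. Fatty acid synthesis (1996 to 2582 at the high dose, 4706 to 6548 at the low dose) and adipocytes (454 to 2273 at the high dose, 3428 to 5664 at the low dose) lie lower at the high dose without overlap, and NRF2 targets overlap.

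Wall and surface markers gave smaller differences. Smooth muscle markers summed to 23560, 15170 and 18450 FPM in the high dose and 27860, 23990 and 31520 in the low dose, again without overlap (without Myh11 they overlapped), while the list's median relative to all genes lay between 0.79 below and 0.50 above under the alternatives. The 16 tested markers of surface colonocytes summed to 21460, 19330 and 18200 FPM at the high dose against 25840, 28040 and 24900 at the low dose, while all 16 differences in FPKM were positive and the list's median lay 0.72 above all genes. Without Car1 the sums overlapped, at 13340, 17400 and 12960 FPM at the high dose against 11310, 18470 and 13530 FPM at the low dose. Car1, carbonic anhydrase of the colon and the most abundant of them, had 8120, 1937 and 5235 FPM at the high dose against 14530, 9563 and 11370 at the low dose, and it was named after its values were seen (difference -1.66, adjusted p = 1.74e-07 with voom, 0.0617 without replicate 26; adjusted p = 0.612 with limma on FPKM, where its difference was positive, 1.17). Aqp8, a water channel of surface cells, had 344, 1280 and 135 at the high dose against 0, 364 and 0 at the low dose, which overlap (adjusted p = 0.00156 with voom, 0.401 without replicate 26). Slc26a2, a sulfate transporter, had 1682, 2450 and 1908 at the high dose against 15.1, 1531 and 773 at the low dose. General epithelial markers overlapped, at 16030, 13090 and 14690 at the high dose against 14820, 16530 and 12290 FPM at the low dose, and all 11 were tested, so the labelled tissue had its defining markers at both doses. Cdh1, the junction protein E-cadherin, was lowest in replicate 26 (2100, 2184 and 1639 at the high dose against 197, 1539 and 1531 at the low dose).

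The tight junction list, which also held the cadherins Cdh1 and Cdh17, was higher relative to all genes. All 17 tested members had a positive difference, 7 lay above without overlap (41.2%, against 22.9% of all genes) and none was called. The list's median lay 0.98 above that of all genes, 0.47 above without low dose replicate 26, and between 0.22 and 1.31 above under the alternatives. Cldn8, a claudin that seals the distal colon against sodium, had 62.9, 188 and 34.4 FPM in the high dose and 0 in all low dose libraries. Pooled, it stood 8.52-fold above what 0 fragments allows at the low dose, with its own counting error left aside. It stood 3.12-fold above without high dose replicate 23, 4.12-fold without low dose replicate 27 and 5.58-fold without low dose replicate 29. It did not pass with limma (1.93, 10 and 1.05 FPKM at the high dose against 0 at the low dose; adjusted p = 0.178) and passed with voom (adjusted p = 0.0332, and 0.0103 without replicate 26). Cldn8 passed the filter through the high dose libraries alone and could only differ upwards. Of all genes, 1.31% were at 0 in all low dose libraries. In the vehicle libraries Cldn8 stood at 440, 0 and 0 FPM. With cymopol it stood at 24.3, 209 and 0 FPM at the high dose and 94.2, 0 and 0 at the low dose. F11r, an adhesion molecule of the junction, had 218, 160 and 322 FPM at the high dose against 2.42, 90.6 and 59.6 at the low dose, and Marveld3 had 57.1, 134 and 151 at the high dose against 0, 16.4 and 75.3 at the low dose. Cldn12 had at most 6.27 fragments in a library. As a sum, the list overlapped, at 7595, 6608 and 6591 FPM at the high dose against 1806, 6868 and 4051 at the low dose. Without Cdh1, its most abundant member, it overlapped as well, at 5495, 4424 and 4952 FPM at the high dose against 1609, 5329 and 2520 at the low dose.

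Among p53 targets, 5 of 9 tested lay above without overlap (55.6%, against 22.9% of all genes), none was called, and the list's median was 0.76 above all genes (0.88 without replicate 26, range 0.30 to 1.00). Mdm2, which limits p53, had 48, 43 and 15.9 FPM at the high dose against 0.107, 0.306 and 12.5 at the low dose. Its low dose values rested on 0, 0.03 and 0.89 fragments. All its high dose levels lay under the 105 FPM that 0 fragments allows in low dose replicate 26, and 15.9 lay under the limit of each low dose library. Bax, which permeabilises mitochondria, had 74.3, 46.4 and 60.9 at the high dose against 35.1, 46.8 and 0 at the low dose, and overlapped. Trp53inp1, a stress-induced p53 partner, had 160, 226 and 146 at the high dose against 2.49, 56.4 and 0.199 at the low dose (adjusted p = 0.374, limma; 0.0262 with voom, 0.132 without replicate 26). On the fragment scale 3 of the 9 lay above without overlap, against 19.6% of all genes, and the sums overlapped.

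Lists of general cell machinery differed in how far their medians rested on replicate 26. Nuclear genes of oxidative phosphorylation had a median 0.63 above all genes with it and 0.00 without it, with 10 of 37 above without overlap (27%, against 22.9% of all genes). Their sum was 9701, 8187 and 8031 FPM at the high dose against 3745, 7786 and 7323 FPM at the low dose, without overlap, and overlapped without Atp5a1. Sdhd, a subunit of complex II, had 436, 379 and 292 FPM at the high dose against 0, 150 and 182 at the low dose, and Cox6a1, of complex IV, had 671, 561 and 626 at the high dose against 0, 621 and 492 at the low dose, which overlap. Ribosomal proteins had a median 0.64 above all genes with replicate 26 and 0.00 without it, and 12 of 34 lay above without overlap (35.3%, against 22.9% of all genes). On the fragment scale 8 of the 34 lay above without overlap, against 19.6% of all genes. Their sum overlapped, at 6744, 7352 and 6979 FPM at the high dose against 8645, 5907 and 5564 at the low dose. Rps20, of the small ribosomal subunit, had 38.7, 38 and 19.8 FPM at the high dose against 0, 9.78 and 0.0334 FPM at the low dose, without overlap. Its low dose values rested on 0, 1.04 and 0 estimated fragments. For endoplasmic reticulum chaperones the median was 0.57 above all genes, 0.20 above without replicate 26 and between 0.13 and 0.60 above under the alternatives, with 5 of 16 above without overlap (31.2%, against 22.9% of all genes) and none called. Their sum was 4089, 2778 and 2963 FPM at the high dose against 1085, 2373 and 1789 FPM at the low dose, without overlap. Hspa5, the main chaperone of that compartment, had 245, 230 and 175 at the high dose against 2.44, 123 and 113 at the low dose, and Creld2 had 51.5, 34.1 and 50.1 at the high dose against 35.1, 9.37 and 0 at the low dose. The goblet cell list's median was 0.60 above all genes and 0.13 below without replicate 26, and Spdef, a goblet cell regulator, had 193, 92.6 and 139 at the high dose against 179, 135 and 0 at the low dose.

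**Figure D4:**
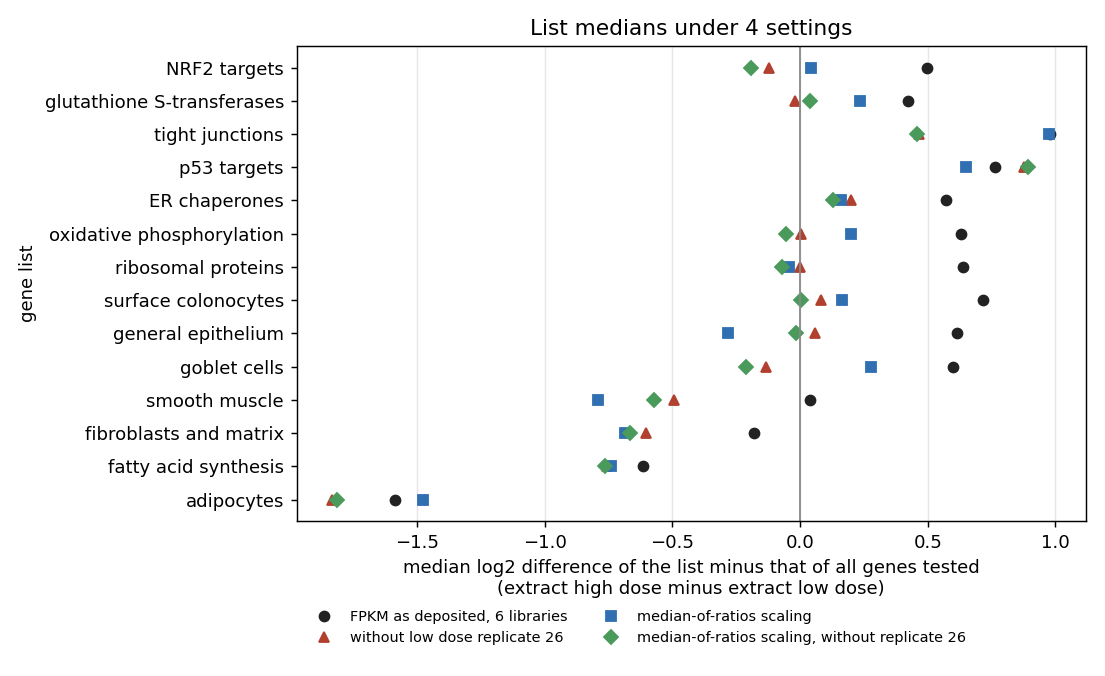
Median log2 difference (high dose minus low dose) of 14 gene lists minus the median of all 8230 genes, with 1 marker per setting. Adipocytes and fatty acid synthesis lie below 0 and tight junctions and p53 targets above 0 in all 4 settings, whereas NRF2 targets, oxidative phosphorylation and ribosomal proteins lie near 0 once low dose replicate 26 is left out.

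A pair of clock genes differed in opposite directions. Dbp, an output factor of the circadian clock, was the 1 gene of the wider set (0.0122%) listed at 0 in all high dose libraries. In the other direction 108 genes (1.31%), Arntl among them, were at 0 in all low dose libraries. Dbp had 3.61, 6.11 and 3.33 FPKM in the low dose libraries (difference -2.38 ± 0.73; adjusted p = 0.178, limma). Its low dose values rested on 14.5, 10.3 and 0.91 fragments, or 507.5, 96.1 and 12.7 FPM. The 12.7 FPM of low dose replicate 29 lay under the 17.2 FPM that 0 fragments allows in high dose replicate 21. Pooled, the low dose stood 41.8-fold above what 0 fragments allows at the high dose, with its own counting error left aside. It stood 21.1-fold above without low dose replicate 26 and 18.8-fold without high dose replicate 23. Dbp passed with voom (adjusted p = 3.85e-06) but not without replicate 26 (0.0522). At 0 in all high dose libraries, it is among the genes for which voom's constant leans to lower values there. The end of Dbp overlaps Sphk2 on the other strand for 737 bases, and strand is not stated to have been used. Arntl, the activator BMAL1 at the core of the clock, had 2.76, 16.7 and 2.3 FPKM in the high dose libraries and 0 in all low dose libraries (difference 2.59 ± 0.79; adjusted p = 0.178, limma). On the fragment scale these were 103, 284 and 51.6 FPM at the high dose against 0 at the low dose. Pooled, Arntl stood 13-fold above what 0 fragments allows at the low dose, with its own counting error left aside. It stood 4.91-fold above without high dose replicate 23, 6.27-fold without low dose replicate 27 and 8.49-fold without low dose replicate 29. With voom it passed (adjusted p = 0.00144, and 0.00137 without replicate 26). Arntl was named after its values were seen. Dbp passed the filter through the low dose libraries alone and could only differ downwards. Arntl passed it through the high dose libraries alone and could only differ upwards. In the vehicle libraries Dbp stood at 174, 45.1 and 0 FPM and Arntl at 538, 0 and 0, so Dbp was at 0 in 1 and Arntl in 2 of the 3 vehicle libraries. The 15 tested clock genes as a list had a median 0.18 below all genes, and the other 13 overlapped between the doses on the fragment scale.

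**Figure D5:**
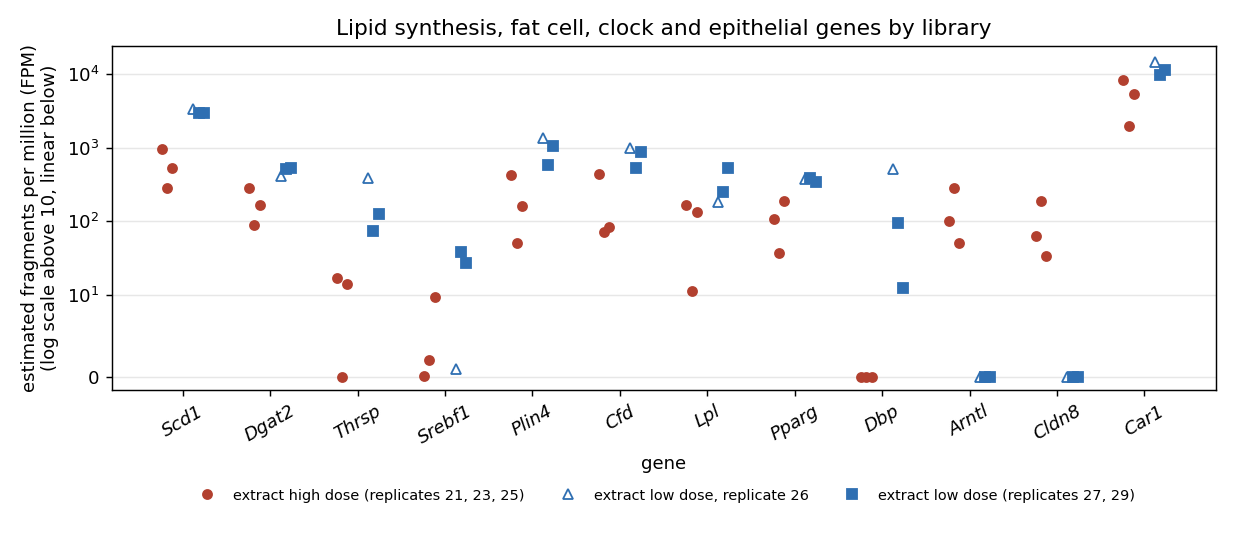
Level in FPM in each library for genes of lipid synthesis (Scd1, Dgat2, Thrsp, Srebf1), fat cells (Plin4, Cfd, Lpl, Pparg), the clock (Dbp, Arntl) and epithelium (Cldn8, Car1), with the high dose in red to the left of the low dose in blue and low dose replicate 26 as an open triangle. The axis is logarithmic above 10 and linear below. Scd1 lies at 281 to 953 in the high dose and 2909 to 3288 in the low dose.

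Further genes were named by rank of p among those without overlap, and those described here did not pass with limma (adjusted p from 0.105 to 0.627). Ranked beside them were Gm25791, Gm17099, Gm20456, Hist1h2ac, Ccdc85b, Atp5e, Vamp8 and Hist1h1e on the higher side and Kif1bp and an identifier without a gene name on the lower side. On the higher side, Tnni1, a troponin of slow muscle, had 23.9, 38.5 and 7.79 FPKM in the high dose and 0 in the low dose (181, 167 and 51.4 FPM; adjusted p = 0.105, limma; 0.0027 with voom). The only skeletal muscle marker tested, Ckm, overlapped at 7.6, 32.4 and 64.6 at the high dose against 0, 85.2 and 29.9 FPM at the low dose. Myo1h, a myosin, had 88, 116 and 137 FPM at the high dose against 0.302, 0 and 0 at the low dose (adjusted p = 0.178, limma; 0.00388 with voom). Cirbp, a cold-inducible RNA-binding protein, had 54.6, 54.5 and 78.1 at the high dose against 1.17, 0.34 and 0 at the low dose. Mrpl21, of the mitochondrial ribosome, had 31.8, 54.8 and 43.8 at the high dose against 0 at the low dose. Pooled, it stood 3.29-fold above what 0 fragments allows at the low dose, with its own counting error left aside. It stood 1.59-fold above without low dose replicate 27 and 2.15-fold without low dose replicate 29. Tnni1, Myo1h, Cirbp and Mrpl21 passed the filter through the high dose libraries alone and could only differ upwards. Magi1, a junction scaffold, differed between the scales. It had 83.4, 84.7 and 42.6 FPKM at the high dose against 0.0117, 2.38 and 4.38 at the low dose, but 247, 180 and 243 FPM at the high dose against 8.8, 305 and 376 at the low dose, which overlap.

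Short genes of the 779 with rows of their own also ranked high. Dpm3 (19.7, 15.1 and 18.5 FPM), Apoa2 (12.9, 8.29 and 16.6), Fam173a (26.9, 32.1 and 13.8) and Mrpl36 (28.6, 14.4 and 32.2) were all at 0 in the low dose libraries, and so could only differ upwards. Pooled over the high dose they stood at 16.8 FPM for Dpm3, 11.4 for Apoa2, 26.2 for Fam173a and 21.8 for Mrpl36, all under the 30.1 FPM that 0 fragments allows once low dose replicate 27 is left out, so no difference was firmly detectable. From the wider set rather than the 779, Eif2b2, a subunit of a translation initiation factor, had 93.4, 10.8 and 57.2 FPM at the high dose against 0, 4.94 and 0 at the low dose. Ppp4r3a, of protein phosphatase 4 and also from the wider set, had 119, 265 and 150 at the high dose against 50.9, 50 and 0 at the low dose. Coa3, an assembly factor of complex IV and among the 779, had 89.3, 113 and 131 at the high dose against 0.318, 0 and 20.8 at the low dose.

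On the lower side, 8 genes of the wider set lay below without overlap in FPKM. The pseudogene Gm9353 had 0, 0 and 3.58 FPM in the high dose and 418, 46.8 and 42.1 in the low dose (adjusted p = 0.207, limma; 0.000172 with voom, 0.0945 without replicate 26). It passed the filter through the low dose libraries alone and could only differ downwards. It rested on 0, 0 and 1 fragments at the high dose, where voom's constant leans to lower values. Cpeb3, which controls translation of stored messages, had 0.233, 1.01 and 2.24 at the high dose against 14.5, 44.4 and 25.5 at the low dose. It rested on 0.04, 0.56 and 0.63 fragments at the high dose and 0.41, 4.74 and 1.82 at the low dose. The 14.5 FPM of low dose replicate 26 lay under the 17.2 FPM that 0 fragments allows in high dose replicate 21. Gnao1, a G protein subunit abundant in neurons, had 1.55, 4.63 and 2.02 at the high dose against 58.7, 6.26 and 92.3 at the low dose. It rested on 0.27, 2.57 and 0.56 fragments at the high dose and 1.67, 0.67 and 6.58 at the low dose. Tgfa, a ligand of the EGF receptor, had 6.75, 16.6 and 12.2 at the high dose against 398, 7.22 and 34.3 at the low dose, which overlap on this scale.

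Markers of pancreas and liver were read as a check on neighbouring tissue. Of 10 listed, 3 were tested, and they summed to 50.3, 551 and 177 FPM in the high dose and 4.09, 60.5 and 0 in the low dose. Alb, serum albumin, made up most of this in high dose replicate 23 (0.0613, 322 and 39.4 at the high dose against 0.37, 4.26 and 0 at the low dose). Cela1, a pancreatic elastase, had 45.7, 166 and 89.4 at the high dose against 0, 56.2 and 0 at the low dose, and Apoa1 had 4.46, 64.1 and 48.5 at the high dose against 3.72, 0 and 0 at the low dose. Saa1, an acute-phase protein that colon epithelium also makes, was high in the same library (48, 2860 and 201 at the high dose against 35.1, 187 and 135 at the low dose). Their part in the results above was not tested.

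The dose difference of the extract was compared with that of cymopol over 12 libraries, with no library shared. With limma, 1 of 1028 genes with rows of their own differed (0.0973%). It was Snord11, at 0 in 9 of the 12 libraries, which passed the filter through the extract high dose libraries alone, with a difference of differences of 6.29 (adjusted p = 0.0189). In the wider set of 10936 genes none was called by limma (smallest adjusted p = 0.0781), with 181 positive and 73 negative at an unadjusted p under 0.05. The mitochondrial gene mt-Nd6, named by the rule, had 0 FPKM in all extract high dose libraries and 0, 57.4 and 9.34 in the extract low dose libraries. It had 45.1, 79.7 and 40.9 FPKM in the cymopol high dose libraries and 0, 0 and 4.73 in the cymopol low dose libraries, a difference of differences of -7.99 (adjusted p = 0.0781, limma). For Nqo1 this difference was 0.23, for Gclc 0.96, and for Srxn1 0.70, and none of these passed. The other genes named by rank in this comparison had an adjusted p of 0.873 or more.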

How the data were processed

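RNA of the large intestine was depleted of ribosomal RNA from 90 ng of total RNA and made into libraries with a low-input kit, per the labels' protocols. The submitters' processing notes name STAR 2.4.0j and the build GRCm38.p4. The authors deposited 1 table of FPKM values per library, with a lower and an upper bound, in the format of a Cufflinks gene tracking table per the file headers. Version and settings of the quantifier, and whether strand was used, are not stated in the labels or headers. The tables hold no counts, so no count test was the main one.

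From the FPKM tables as deposited, annotated rows were joined by Ensembl identifier without version. Of 38189 identifiers 37764 are in GENCODE M21, 82.1% of these with the same start and end, and symbols and positions come from there. In the wider set an assembled locus was given to a gene without a row in that library when the overlap of the pair came to 0.5 or more of their union and neither had a better partner. Values of log2(FPKM + 1) were fitted with limma 3.58.1 in R 4.3.3 (1 mean per group, moderated variances with a trend, two-sided, Benjamini-Hochberg adjustment over all genes tested, called under 0.05). A fold change on this scale understates that of low genes. The smallest exact p for 3 libraries per group is 0.1, so only the model across genes can pass. Fragments were estimated from the width of each FPKM interval. They are approximate, and too low for intervals wider than counting would give: in 2248 of the 8230 genes an FPKM of at least 1 came with under 0.5 fragments in at least 1 library. Levels in FPM are relative to all fragments estimated in protein-coding genes of the library. Limits for 0 fragments cover counting error only.

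Named genes are 15 NRF2 and aryl hydrocarbon receptor targets, the genes without overlap ranked by p (10 in each direction, again at a mean FPKM of at least 10) and up to 4 members per list, with others said to be named after their values were seen. Members, comparisons and the 44 gene lists were chosen with earlier results of these data known. The wider set, the fragment scale, its bounds with a library left out, list sums without their most abundant member and the fits without replicate 26 combined with another change were added after seeing the data. The fit was tested on simulated data, in which FPKM followed a library's total of estimated fragments. In the real tables an FPKM in replicate 26 stood for 4.6 times as many fragments as in replicate 27. The simulation did not include that difference, so it says nothing about its effect. Alternatives were other pseudocounts, scalings, filters and weights, voom on estimated fragments, all 15 libraries in 1 fit, and each library left out. Sequences come from GENCODE M21 transcripts. Tables and figures were made with Python 3.11.15, pandas 2.3.3 and matplotlib 3.10.9.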

Additional observations from a re-analysis of the deposited data

Results flagged for a closer look

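Snord11 was the 1 gene called in the test of the extract's dose difference against that of cymopol. The difference of differences was 6.29 (adjusted p = 0.0189, limma over 12 libraries and 1028 genes), and it was higher in 3 of 3 extract high dose libraries, at 97.3, 151 and 31 FPKM against 0 in the extract low dose libraries. In the wider set the adjusted p was 0.0781. It was at 0 in the other 9 libraries and passed the filter through the extract high dose libraries alone. The values rest on 1.99, 6 and 1 estimated fragments. Pooled, these are 8.9 FPM, under the 14.5 FPM that 0 fragments allows at the extract low dose, and 0 fragments allows 16.4 to 94.2 FPM in the cymopol low dose libraries, so a difference was not detectable at this depth.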

How the results depend on the processing

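No paired analysis was possible because the doses share no replicate number. Of the 779 genes, 4 were called. The count was 2 with median-of-ratios scaling, 2 with equal protein-coding sums, 2 with quantile normalization, 1 with the stricter filter, 0 with no filter, 0 with protein-coding genes only, 26 with voom (21 higher, 5 lower, none of the 4) and 0 to 2 with 1 library left out. In the wider set, also 4, it was 0 with median-of-ratios scaling, 1 with equal protein-coding sums, 0 with quantile normalization, 0 with no filter, 1 with the stricter filter, 21 with array weights, 78 with voom (48 higher, 30 lower, none of the 4), 0 with protein-coding genes only and 0 to 1 with 1 library left out. With settings added after seeing the data it was 0 with replicate 27 as the only low dose library, 0 with median-of-ratios scaling without replicate 26 and 47 with voom without it. For extract against cymopol the count was 1, and 0 with a pseudocount of 0.1, 0 with no filter and 0 to 1 with 1 library left out, and in the wider set 0, and 0 to 2 with 1 library left out. The causes were not tested.

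Of the named genes' values, 53 changed sign. With voom, differences were -0.072 for Gclc, -2.26 for Txnrd1, -0.26 for Gstm1, -0.62 for Cbr3, -2.27 for Gpx2, -0.004 for Gm23455, -0.056 for Cldn12, -2.16 for Pparg and -1.66 for Car1. With voom without replicate 26 they were -0.013 for Nqo1, -0.13 for Gclc, -1.61 for Txnrd1, -0.42 for Gstm1, -0.58 for Gstm3, -0.90 for Cbr3, -1.62 for Gpx2, -0.60 for Magi1, -2.21 for Pparg and -1.49 for Car1. With median-of-ratios scaling they were -0.019 for Gstm1, -0.044 for Cbr3, -0.23 for Pparg and -0.56 for Car1, and without replicate 26 as well -0.28 for Gclc, -0.32 for Gclm, -0.083 for Txnrd1, -0.073 for Gstm1, -0.12 for Gstm3, -0.51 for Cbr3, -0.48 for Pparg and -0.59 for Car1. With replicate 27 as the only low dose library they were -0.70 for Txnrd1, -0.10 for Gpx2, -0.44 for Pparg and -0.025 for Car1. Pparg had -0.10 with array weights and -0.14 with quantile normalization, Car1 -0.26 with equal protein-coding sums and Dgat2 0.23 with a pseudocount of 0.1. With 1 library left out, Cbr3 ranged from -0.16 to 2.33, Pparg from -0.13 to 1.86, Plin1 from -1.21 to 0.047, Cidec from -1.72 to 0.086, Scd1 from -1.80 to 0.26, Dgat2 from -1.06 to 0.57, Plin4 from -1.60 to 0.60, Cfd from -1.84 to 0.19, Lpl from -1.32 to 0.31 and Car1 from -0.23 to 1.97. Txnrd1 and Gpx2 had under 1 fragment in every library. Their differences in both voom fits come from voom's added constant and the library totals, not from their levels. The constant also lowers the voom differences of other genes with few fragments. The low dose libraries held 28513 to 106747 estimated fragments.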
